A study of Homo sapiens with 8 samples.

Results

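The cancer-testis antigens and the MAGE genes were followed through 8 RNA sequencing libraries of human prostate cancer cell lines that are sensitive or resistant to enzalutamide, an antiandrogen that blocks the androgen receptor. The genes were taken by symbol: MAGEA to MAGEH, SSX, CTAG, GAGE, PAGE, XAGE and VCX genes, and PRAME. This gave 39 of the 16126 gene symbols in the 3 deposited tables, 1 table per cell line. Of these, 34 stood among 13969 genes listed for C4-2B, 27 among 14809 for CWR-R1 and 29 among 14800 for VCaP. All 3 tables share 24 of them. By family there were 9 MAGEA, 1 MAGEB, 7 MAGED to MAGEH, 3 SSX, 3 CTAG, 7 GAGE, 1 PAGE, 3 XAGE and 4 VCX genes, and PRAME.

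C4-2B, a line derived from LNCaP, was sequenced as 2 biological replicates of the parental form and 2 of the resistant form C4-2BENZR, all 4 carrying a luciferase and GFP transgene. CWR-R1 and its resistant form CWR-R1ENZR, and VCaP and the library labelled VCaPENZR, gave 1 library each. The labels give no drug dose, no time in drug, and nothing on whether a resistant form is a clone. Every group is thus a single line, and a test between the C4-2B groups covers only the spread between libraries of these lines.

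Most of these genes are silent in healthy adult tissue outside the germ cells of the testis, and many are kept off by methylation of DNA at their promoters. They are switched on in many tumours, and since the testis is hidden from the immune system their proteins are seen as foreign there. The MAGE proteins share a domain that binds ubiquitin ligases. MAGEA and MAGEB genes belong to the germline group, while MAGED to MAGEH genes are transcribed in many adult tissues.

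A level below is the deposited value, a read count divided by a scaled library size, in which 1 read was worth 0.0473 to 0.0675 depending on the library. The libraries held 14503586 to 20248655 reads in listed genes. A count of 0 allows up to 3 reads, a level of 0.142 to 0.202, and counting intervals and floors cover counting error only. The tables were normalized separately, so levels set side by side across tables are a description. Of 10 defining genes of germ cells, such as DDX4 and PRM1, 9 were in no table, and the other, SYCP3, reached at most 1.65. The 8 prostate luminal markers were in every table. In these RNA pools, fewer cells that express a gene and less RNA per cell cannot be told apart.

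The library labelled VCaPENZR went against its label. ERG, the gene joined to TMPRSS2 in VCaP, had a level of 428 in VCaP and 0.179 in the library labelled VCaPENZR, and KLK3, which encodes prostate-specific antigen, had 465 and 0.774. KLK3 alone does not set the label aside, since it was also lower in C4-2BENZR, at 49.2 and 48.1, than in C4-2B, at 2067 and 2024. Over the 12868 genes shared by the tables, log2 levels of the library labelled VCaPENZR correlated with those of CWR-R1ENZR at r = 0.94. With those of VCaP they correlated at r = 0.73, across genes that are not independent replicates. This library is therefore described by its label, and no direction of resistance in VCaP is drawn from it.

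The 4 genes that mark the group, MAGEA4, SSX2B, VCX and CTAG2, had different patterns in the 3 lines. VCX, SSX2B and CTAG2 were near the floor or low in C4-2B and abundant in C4-2BENZR. MAGEA4 was the most abundant MAGEA gene in both CWR-R1 libraries and was not listed in the C4-2B table. None of the 4 had a read in VCaP.

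**Figure D1:**
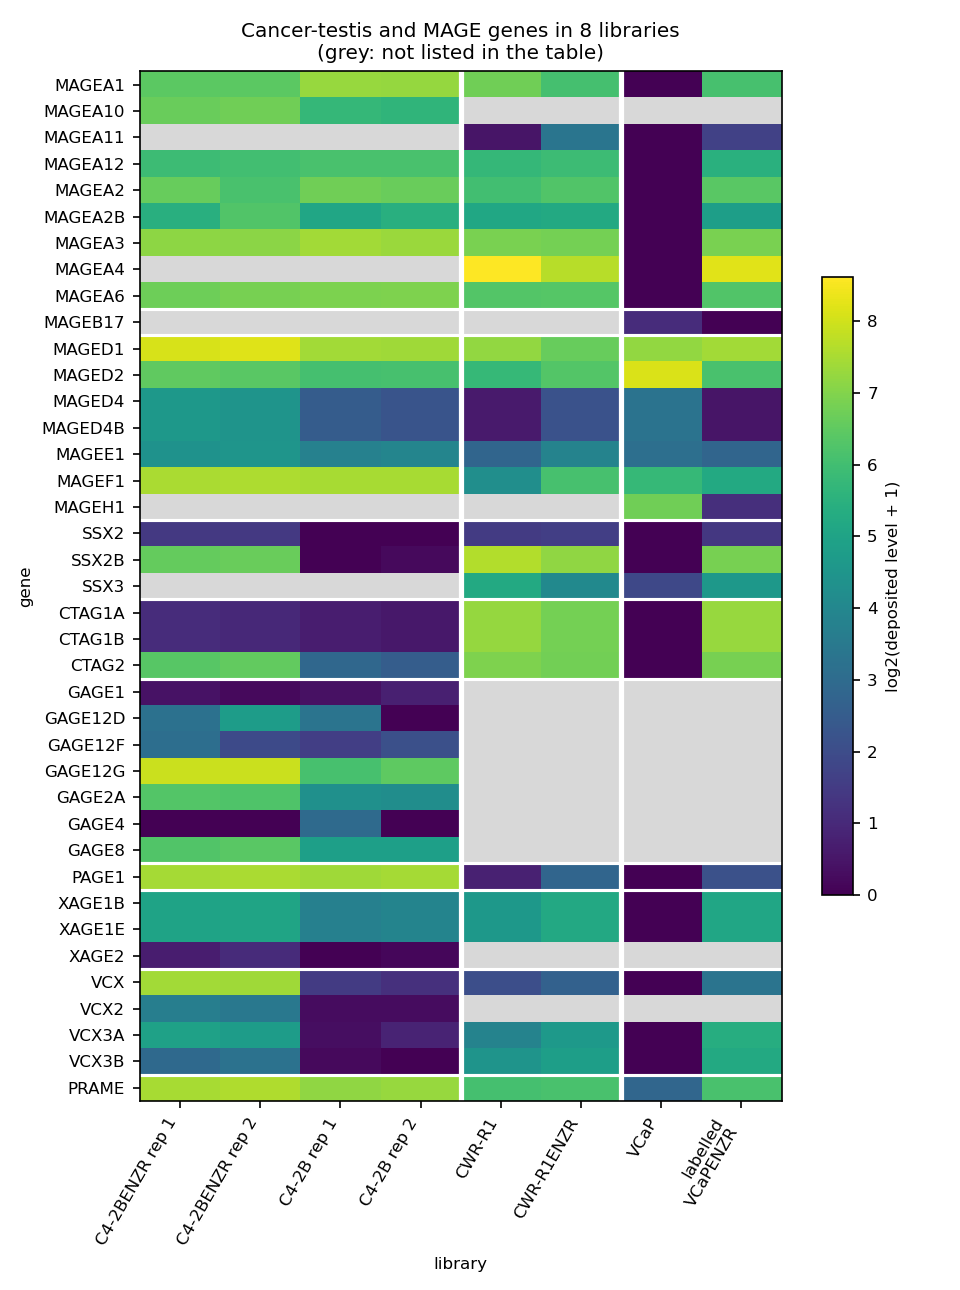
Level of each of the 39 genes (rows, grouped by family between the thin white lines) in each of the 8 libraries (columns, tables separated by thick white lines), as log2(deposited level + 1), with genes that a table does not list in grey. VCX and SSX2B are dark in C4-2B and bright in C4-2BENZR, and the VCaP column is dark in all families but MAGED to MAGEH, MAGEB17, PRAME and SSX3.

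In C4-2BENZR against C4-2B, 29 of the 34 listed genes lay above the filter on low values, a level of at least 1 in at least 2 libraries. Of these, 21 were called higher (background of 27.8% of 13280 genes), 4 were called lower (29.0%) and 4 were not called, by limma with an adjusted p below 0.05. The 4 lower genes were MAGEA1, MAGEA2, MAGEA3 and MAGEA12, and the 4 without a call were MAGEA6, MAGEF1, PAGE1 and GAGE12F. Called and at least 2-fold higher were 16 of the 29, where 6.16% of all genes were. The libraries of the 2 groups did not overlap for 27 of the 29 (77.4% of all genes). The median difference was 1.18 on the scale of log2(level + 1), against -0.00 over all genes. These counts carry the filter with them: SSX2, SSX2B, VCX2, VCX3A and VCX3B passed it through C4-2BENZR alone. Below it were CTAG1A, CTAG1B, GAGE1, GAGE4 and XAGE2.

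Many of these genes are near-identical copies, so the count of symbols is larger than the count of signals. CTAG1A and CTAG1B, MAGED4 and MAGED4B, and XAGE1B and XAGE1E had identical values in every library. Of the 36 genes with a transcript in GENCODE release 29, 14 shared over 50% of their 150-base windows with another gene and 7 shared all of them, SSX2, SSX2B, GAGE12D, GAGE12G, MAGEA2B, MAGED4B and XAGE1B. How reads were split between such copies is not given in the sources used here, and a single copy's value is uncertain. With copies summed, 17 features remained, of which 11 were called higher, 3 lower and 3 had no call. Of all 13268 features in this fit, 3685 were called higher and 3862 lower. The sum of SSX2 and SSX2B reached the filter through C4-2BENZR alone, so it had to differ.

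**Figure D2:**
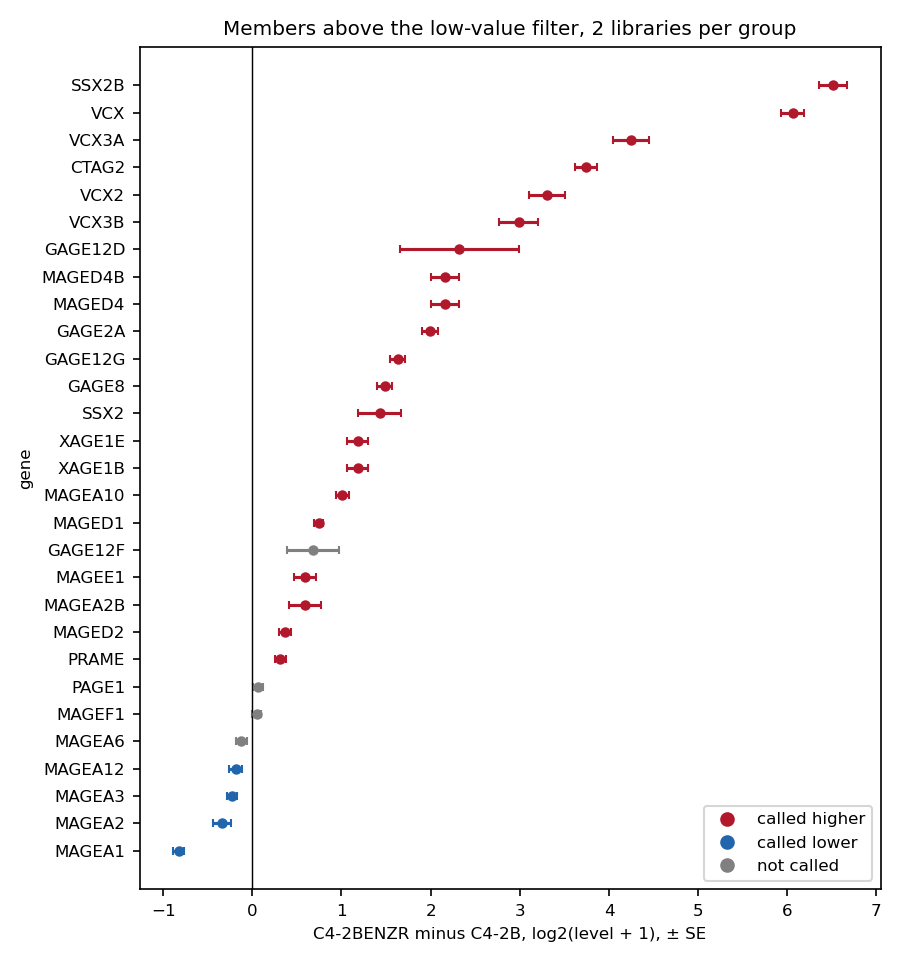
Difference between C4-2BENZR and C4-2B on the log2(level + 1) scale (horizontal axis, ± SE) for each of the 29 genes above the filter (vertical axis), 2 libraries per group. SSX2B and VCX stand beyond 6, and the 4 genes called lower all belong to the MAGEA family.

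The VCX genes encode small, highly charged proteins made in male germ cells, and lie in a region near the tip of the short arm of the X chromosome. All 4 rose in C4-2BENZR, where 27.8% of all genes were called higher. VCX had levels of 169 and 167 in the C4-2BENZR libraries and 1.81 and 1.29 in the C4-2B libraries. That is a mean of 168 ± 1.74 against 1.5496 ± 0.361 (SD, n = 2 each), 108-fold higher, with a log2(level + 1) difference of 6.06 ± 0.13 (SE) and an adjusted p of 9.89e-16 by limma. The C4-2BENZR libraries lay far above the C4-2B libraries, with no overlap (77.4% of all genes had none).

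VCX3A had 29.5 and 26.3 in C4-2BENZR and 0.258 and 0.828 in C4-2B. VCX2 had 11.96 and 9.96 against 0.206 and 0.207. VCX3B had 6.71 and 8.45 against 0.155 and 0, from 3 reads and 0 reads. The C4-2B values of VCX2 and VCX3B thus rest on at most 4 reads per library, and the 95% counting intervals of their folds, 53.0 and 98.0, ran from 26.9 to 125 and from 32.8 to 472. All 3 reached the filter through C4-2BENZR alone, so they had to differ, and the limma adjusted p, from 3.09e-11 for VCX3A to 8.15e-09 for VCX3B, is given as a description. The 4 genes summed to 215 ± 4.18 in C4-2BENZR and 2.38 ± 0.0671 in C4-2B, 90.3-fold higher.

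The balance between the VCX copies differed between tables. Per kilobase of the longest transcript, VCX had a level of 175 and 173 in the C4-2BENZR libraries, VCX3A 29.6 and 26.4, and VCX3B 5.73 and 7.22. The C4-2B libraries had 1.87 and 1.34 of VCX and at most 0.832 of the others. In CWR-R1 the order was the reverse: per kilobase, VCX3B had 17.9, VCX3A 13.6 and VCX 3.35. CWR-R1ENZR had 23.2, 23.8 and 5.61, and the library labelled VCaPENZR 31.4, 40.8 and 9.30. VCX was thus the leading copy in the C4-2B table and the lowest of these 3 in the other libraries with reads. VCX shares 33.9% of its 150-base windows with another gene and VCX3A 72.8%.

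The genes between and beside the VCX copies had small differences in either direction. In chromosomal order the listed genes are NLGN4X, VCX3A, HDHD1, STS, VCX, PNPLA4, VCX2, VCX3B and TBL1X. HDHD1 (log2 difference -0.28, adjusted p 0.0799), PNPLA4 (-0.16, 0.300) and TBL1X (0.06, 0.432) had no call by limma. STS, steroid sulfatase, fell by 0.61 (adjusted p 0.00185), and NLGN4X, a neuronal adhesion protein, rose by 0.49 (5.21e-05).

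**Figure D3:**
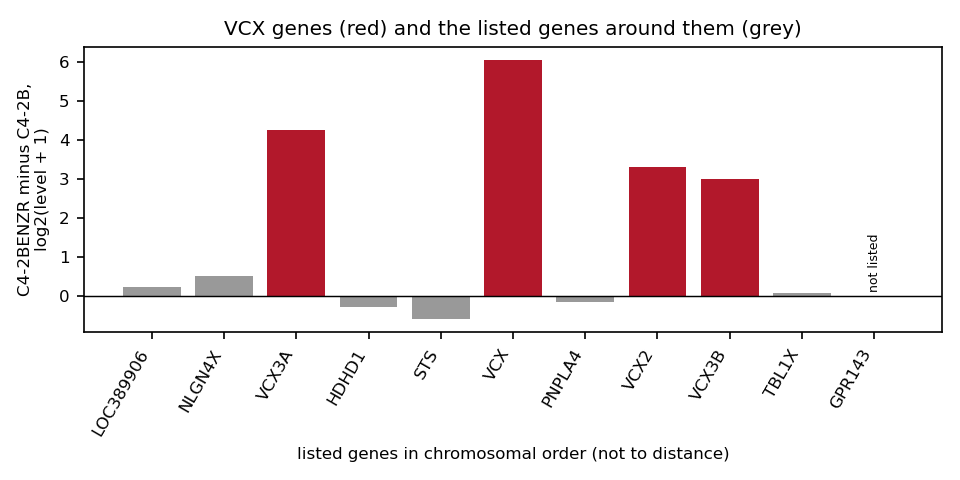
Difference between C4-2BENZR and C4-2B (log2 of level + 1, vertical axis) for the 4 VCX genes in red and the listed genes around them in grey, in chromosomal order without distances. The VCX bars reach 2.99 to 6.06 and every grey bar lies between -0.61 and 0.49.

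Bases upstream of the RefSeq start (GRCh38.p14, plus strand) are shown for VCX, chrX:7842921-7843057, and for VCX3B, chrX:8464580-8464829, since the leading copy differed between lines. The VCX stretch ends before the first exon annotated in GENCODE. Capitals mark CG dinucleotides, the sites of DNA methylation.
VCX: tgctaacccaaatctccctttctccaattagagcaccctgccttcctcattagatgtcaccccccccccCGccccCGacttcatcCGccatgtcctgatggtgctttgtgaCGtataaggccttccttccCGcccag
VCX3B: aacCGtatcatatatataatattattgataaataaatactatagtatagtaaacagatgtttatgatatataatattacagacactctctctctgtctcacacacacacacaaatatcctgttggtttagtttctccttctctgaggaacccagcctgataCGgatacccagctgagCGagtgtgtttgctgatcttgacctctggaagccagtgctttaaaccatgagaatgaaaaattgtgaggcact
In the full 250 bases before the start, VCX has 10 CG dinucleotides and 58.0% G and C, and VCX3B has 3 and 36.8%.

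SSX genes encode repressors of transcription that are known from the SS18-SSX fusion of synovial sarcoma. SSX2B had levels of 95.03 and 99.4 in C4-2BENZR and 0 and 0.155 in C4-2B, the latter from 0 reads and 3 reads. The fold of 1252 has a 95% counting interval of 428 to 6070, and the log2(level + 1) difference was 6.51 ± 0.15 (SE, adjusted p 7.82e-15 by limma). SSX2B and SSX2 reached the filter through C4-2BENZR alone, so they had to differ, and this p is a description. The copy SSX2 had 1.70 and 1.68 against 0 and 0, at least 10.9-fold higher over the floor of 3 reads. The SSX2 and SSX2B transcripts share every window, so these are values of the pair, which summed to 98.9 ± 3.06 against 0.0776 ± 0.110.

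In the CWR-R1 pair, given here and below with the sensitive line first, SSX2B was abundant in both, at 196 and 145, 1.35-fold lower (counting interval 1.27 to 1.43). SSX3, not listed in the C4-2B table, had 36.3 and 16.1 there, 2.26-fold lower (1.93 to 2.64). VCaP had 0 reads of SSX2B and a level of 2.62 of SSX3, while the library labelled VCaPENZR had 114 and 23.2. SSX2B was thus at or near 0 in 3 of the 8 libraries, both C4-2B libraries and VCaP, and at 95.03 or more in the other 5.

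The bases before the SSX2B start, chrX:52751002-52751131 on the plus strand, are identical to those before SSX2 in all 250 positions of the RefSeq window. They are shown up to the first annotated exon because this pair had the largest difference in C4-2B.
SSX2B: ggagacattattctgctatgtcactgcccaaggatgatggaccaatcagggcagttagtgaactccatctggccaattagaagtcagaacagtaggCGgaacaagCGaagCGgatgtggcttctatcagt
The full window holds 7 CG dinucleotides.

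CTAG1A and CTAG1B both encode NY-ESO-1, an antigen used as a target for T cell therapy, and CTAG2 encodes the related LAGE-1. CTAG2 had levels of 82.5 and 92.1 in C4-2BENZR and 6.34 and 4.87 in C4-2B. The mean of 87.3 ± 6.80 was 15.6-fold above that of 5.60 ± 1.05 (SD, n = 2 each). The log2 difference was 3.75 ± 0.12 (SE, adjusted p 4.36e-13 by limma), and the groups did not overlap (77.4% of all genes did not). CTAG1A and CTAG1B, with 1 shared value, stayed below the filter, at 1.13 and 0.984 in C4-2BENZR and 0.619 and 0.466 in C4-2B.

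CTAG2 thus stood far above CTAG1 in the C4-2B table, and the genes were close together in the other libraries with reads. Per kilobase, CTAG2 had 83.0 and 92.7 in C4-2BENZR where CTAG1A had 1.14 and 0.991. In CWR-R1 these values were 122 and 153, in CWR-R1ENZR 110 and 112, and in the library labelled VCaPENZR 115 and 157. CTAG1A shares 76.8% of its windows with CTAG1B and CTAG2 11.5% with it. Within CWR-R1 the level of CTAG1A fell from 152 to 111, 1.36-fold lower (counting interval 1.28 to 1.45), and CTAG2 went from 121 to 109, 1.11-fold lower (1.04 to 1.19).

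The GAGE genes are a tandem array of germline genes on the X chromosome, listed only in the C4-2B table. GAGE12G, the most abundant, had 245 and 240 in C4-2BENZR and 68.3 and 88.0 in C4-2B, 3.10-fold higher by the means (adjusted p 1.09e-10 by limma). GAGE2A had 77.6 and 74.4 against 18.8 and 17.9, 4.15-fold. GAGE8 had 77.2 and 83.2 against 28.1 and 28.0, 2.86-fold. None of these 3 overlapped between groups (77.4% of all genes did not).

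The lower GAGE copies scattered between replicates. GAGE12D had 8.27 and 26.0 in C4-2BENZR and 9.03 and 0 in C4-2B: the groups overlap, and its call (log2 difference 2.32 ± 0.67, adjusted p 0.00715 by limma) ended with DESeq2 (0.646) and without the filter (0.0605). GAGE12F had 7.56 and 2.84 against 2.01 and 3.26 and no call. GAGE4 had reads in 1 library alone, C4-2B replicate 1, at 6.81. The sum over all listed GAGE genes, made up mostly of GAGE12G, GAGE2A and GAGE8, did not scatter in this way. All 7 GAGE genes summed to 416 and 427 in C4-2BENZR and to 133 and 138 in C4-2B, 3.11-fold higher, a log2 difference of 1.63 ± 0.05 (adjusted p 8.08e-14 by limma with copies summed).

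The promoter stretch of GAGE12G, chrX:49570147-49570396 on the plus strand, is shown as that of the most abundant copy. The windows of GAGE12D, GAGE12F and GAGE2A are identical to each other over all 250 bases.
GAGE12G: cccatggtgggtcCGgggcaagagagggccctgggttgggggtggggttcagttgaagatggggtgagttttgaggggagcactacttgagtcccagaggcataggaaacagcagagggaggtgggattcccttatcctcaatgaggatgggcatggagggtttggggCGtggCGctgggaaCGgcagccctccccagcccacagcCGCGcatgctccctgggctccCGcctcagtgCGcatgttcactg
It holds 8 CG dinucleotides and 63.2% G and C.

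MAGEA genes encode partners of ubiquitin ligases that are made in spermatogonia and in many tumours. Of 7 listed in C4-2B, 2 were called higher (27.8% of all genes), 4 lower (29.0%) and 1 had no call. MAGEA10 rose: 99.0 and 107 in C4-2BENZR against 52.2 and 49.3 in C4-2B, 2.03-fold (adjusted p 4.78e-09 by limma). MAGEA1 fell: 85.8 and 86.2 against 154 and 152, 1.78-fold lower (adjusted p 4.65e-09). Neither gene overlapped between groups (77.4% of all genes did not). MAGEA1 went the same way in CWR-R1, from 105 to 66.5, 1.58-fold lower (counting interval 1.46 to 1.72).

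The other MAGEA genes in C4-2B differed by at most 1.57-fold. MAGEA3 had 142 and 138 against 169 and 159, 1.17-fold lower (adjusted p 0.00251 by limma). MAGEA12 had 58.5 and 63.4 against 69.0 and 69.7, 1.14-fold lower (0.0380). MAGEA6, which shares 27.9% of its windows with MAGEA3, had 105 and 115 against 119 and 121 and no call (0.0995). With total reads as the only scaling the calls of MAGEA3 (0.0600) and MAGEA12 (0.331) were lost. Leaving out C4-2BENZR replicate 1 (adjusted p 0.307), or either replicate of C4-2B (0.0681 and 0.0934), also ended the call of MAGEA12, as did DESeq2 (0.118).

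MAGEA2 and MAGEA2B were called in opposite directions, and their sum had no call. MAGEA2 had 95.7 and 69.3 in C4-2BENZR and 107 and 99.9 in C4-2B, a log2 difference of -0.34 ± 0.10 (adjusted p 0.0100 by limma). MAGEA2B had 42.5 and 76.5 against 33.6 and 42.03, a difference of 0.59 ± 0.18 (0.00890). The transcripts share 97.8% and 100% of their windows. Summed, they had 138 and 146 in C4-2BENZR and 141 and 142 in C4-2B, a difference of 0.01 ± 0.06 (0.926). Both single calls were lost without C4-2BENZR replicate 2 (0.317 and 0.245), with DESeq2 (0.265 and 0.213) and without the low-value filter (0.0513 and 0.0585).

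**Figure D4:**
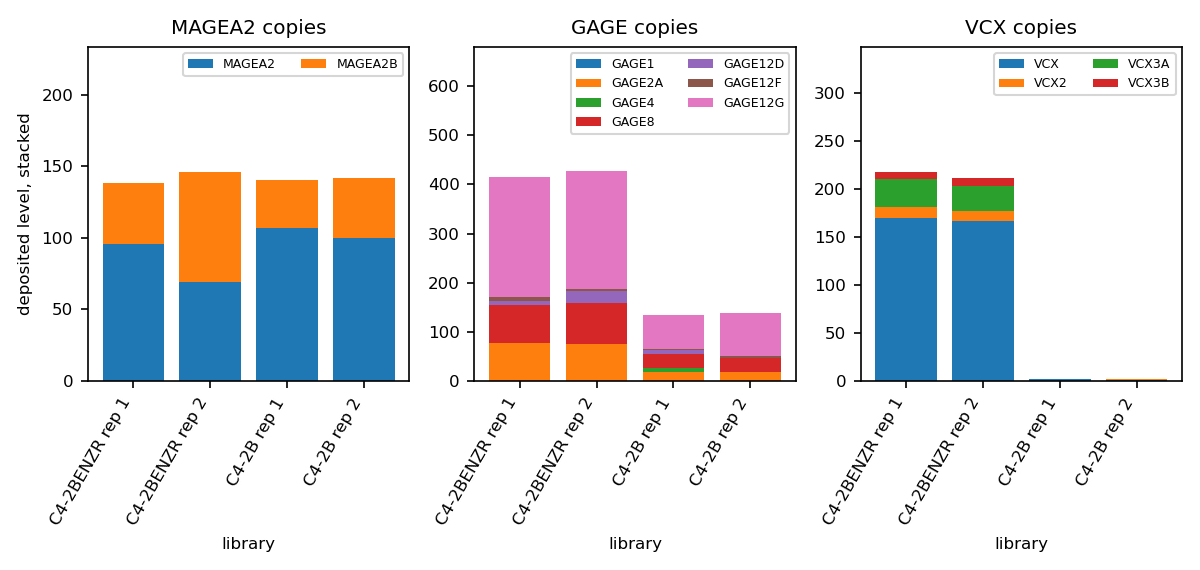
Deposited levels of copies stacked per C4-2B library for MAGEA2 and MAGEA2B (left), the GAGE genes (middle) and the VCX genes (right), each panel with its own vertical axis from 0. The MAGEA2 pair reaches 138 to 146 in every library while its split changes, the GAGE sum is 416 and 427 in C4-2BENZR against 133 and 138, and the VCX sum is near 0 in C4-2B.

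MAGEA4, 1 of the 4 marker genes and a target of engineered T cell receptors, stood at 391 and 205 in the CWR-R1 pair, 1.90-fold lower (counting interval 1.82 to 1.99), and 296 in the library labelled VCaPENZR. MAGEA11, known as a coregulator of the androgen receptor, had 0.405 and 9.18 in the CWR-R1 pair, from 6 and 137 reads, 22.7-fold higher in CWR-R1ENZR (10.2 to 62.9). The same gene had 2.14 in the library labelled VCaPENZR and 0 in VCaP. MAGEA4 and MAGEA11 were not listed in the C4-2B table.

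The upstream bases of MAGEA3, chrX:152698544-152698751 on the plus strand, are shown up to the first annotated exon. The 250-base windows of MAGEA3 and MAGEA6 are identical, as are those of MAGEA2 and MAGEA2B.
MAGEA3: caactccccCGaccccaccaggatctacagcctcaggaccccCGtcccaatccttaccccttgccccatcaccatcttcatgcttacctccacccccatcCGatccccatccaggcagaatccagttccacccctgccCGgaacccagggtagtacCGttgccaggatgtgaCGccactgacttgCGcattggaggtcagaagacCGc
The full window holds 15 CG dinucleotides, above the median of 8 over the promoters of these genes.

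Of the 6 listed MAGED to MAGEH genes, the widely transcribed branch, 5 rose in C4-2BENZR, where 27.8% of all genes were called higher. MAGED4 and MAGED4B are counted separately here although their values are identical. MAGED1, which binds the neurotrophin receptor p75NTR, had 273 and 289 against 169 and 166, 1.68-fold higher (adjusted p 5.87e-09 by limma). MAGED2 had 91.2 and 83.9 against 66.9 and 68.4, 1.29-fold higher. MAGEE1, which binds dystrobrevin, had 19.8 and 21.8 against 12.8 and 14.0, 1.55-fold higher. MAGED4 and MAGED4B shared 1 value, 23.2 and 21.0 against 4.64 and 3.73, 5.28-fold higher. MAGEF1, a partner of the iron-sulfur protein targeting factor MMS19, had 182 and 188 against 181 and 177 and no call (adjusted p 0.459).

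In the single-library lines the branch moved in both directions. In CWR-R1, MAGEF1 went from 18.3 to 68.6, 3.75-fold higher in CWR-R1ENZR (counting interval 3.28 to 4.30), and MAGEE1 from 6.005 to 13.6, 2.27-fold (1.76 to 2.94). MAGED4 and MAGED4B, below the level for comparison, had 0.540 and 3.48, from 8 and 52 reads, 6.46-fold higher (3.05 to 15.7). MAGED2 went from 53.6 to 77.6, and MAGED1 from 149 to 97.8. Of these genes MAGED1 alone was lower in CWR-R1ENZR. VCaP had the highest MAGED2 level of the 8 libraries, 281, against 69.2 in the library labelled VCaPENZR. MAGEH1, listed in the VCaP table alone, had 106 and 1.25, 85.0-fold lower in the library labelled VCaPENZR (55.4 to 138). MAGED4 had 8.71 and 0.417 in this pair.

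PRAME, a leucine-rich repeat protein that serves a cullin ubiquitin ligase and represses retinoic acid receptor signalling, differed little in C4-2B. It had 179 and 193 in C4-2BENZR against 144 and 155, 1.24-fold higher (adjusted p 0.00028 by limma), without overlap (77.4% of all genes had none). It had 67.1 in CWR-R1, 69.1 in CWR-R1ENZR and 69.6 in the library labelled VCaPENZR, and 6.21 in VCaP. PRAME was thus highest in the 4 C4-2B libraries.

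PAGE1 and XAGE1 belong to the GAGE superfamily. PAGE1 had 174 and 181 in C4-2BENZR against 166 and 174 and no call (adjusted p 0.317 by limma), whereas in the CWR-R1 pair it had 0.742 and 6.03, from 11 and 90 reads, 8.13-fold higher in CWR-R1ENZR (counting interval 4.33 to 16.9). XAGE1B and XAGE1E, with 1 shared value, had 30.7 and 31.9 against 12.6 and 13.9 in C4-2B, 2.36-fold higher (adjusted p 2.48e-07). In the CWR-R1 pair they had 22.9 and 35.8, and in the library labelled VCaPENZR 33.5.

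Per kilobase, the most abundant of these transcripts differed by line, with GAGE4, GAGE8 and XAGE1E left out for lack of a matched transcript. In C4-2BENZR replicate 1 they were GAGE12G at 464, PAGE1 at 262, VCX at 175 and GAGE2A at 147, and in C4-2B replicate 1 PAGE1 at 249, GAGE12G at 130, MAGEF1 at 110 and MAGEA3 at 95.8. In CWR-R1 they were MAGEA4 at 221, CTAG1A at 153, CTAG1B at 152, SSX2B at 139 and CTAG2 at 122. In VCaP they were MAGED2 at 128, MAGEH1 at 72.7 and MAGED1 at 51.0. The 3 leading genes of VCaP all belong to the MAGED to MAGEH branch.

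In CWR-R1ENZR against CWR-R1, 24 of the 27 listed genes reached a level of 5 in either library and were compared. At least 2-fold higher were 4, MAGEA11, PAGE1, MAGEF1 and MAGEE1 (background of 9.79%), and 1 was at least 2-fold lower, SSX3 (10.3%). The other 19 differed by less than 2-fold. MAGEA11 and PAGE1 reached a level of 5 through CWR-R1ENZR alone and were near 0 in CWR-R1, so they had to be past 2-fold. The median log2 ratio was 0.13, against -0.02 over all genes. With 1 library per group these ratios have no replicate check. The markers VCX, SSX2B and CTAG2 differed by less than 2-fold here: VCX was 1.68-fold higher (counting interval 1.16 to 2.45), and SSX2B and CTAG2 were lower as given above. VCX3A was 1.76-fold higher (1.47 to 2.10) and VCX3B 1.30-fold (1.12 to 1.51).

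VCaP lacked reads of nearly all the germline-restricted members. No read was found for 19 of the 29 listed genes, where 2.11% of the listed genes had none. These were all 8 MAGEA genes, all 3 CTAG genes, all 3 VCX genes, both XAGE1 genes, PAGE1, SSX2 and SSX2B. A count of 0 allows a level of up to 0.171. The 10 with reads were MAGED1, MAGED2, MAGED4, MAGED4B, MAGEE1, MAGEF1, MAGEH1, PRAME, SSX3 and MAGEB17, the last at 1.14.

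Against VCaP, the library labelled VCaPENZR had 18 of 25 compared genes at least 2-fold higher (21.1% of all genes) and 4 lower, MAGED2, MAGED4, MAGED4B and MAGEH1 (22.0%). Except for PRAME and SSX3, the higher genes had no read in VCaP and reached a level of 5 through the other library alone. These had to be past 2-fold, as had MAGED4, MAGED4B and MAGEH1, which reached that level through VCaP alone. SSX3 also reached it through the library labelled VCaPENZR alone. The bounds over the floor of 3 reads were at least 1734-fold for MAGEA4, at least 912-fold for CTAG1A and at least 670-fold for SSX2B. Of the 23 members with 50 or more reads in that library, 17 had no read in VCaP (1.25% of all such genes). Beside CWR-R1ENZR, 22 of the 24 compared members of the library labelled VCaPENZR lay within 2-fold (85.8% of all genes), the exceptions being MAGEA11 (log2 ratio -1.70) and MAGEE1 (-1.06). Beside CWR-R1 it was 20 of 22, with VCX (1.24) and VCX3A (1.52) outside.

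**Figure D5:**
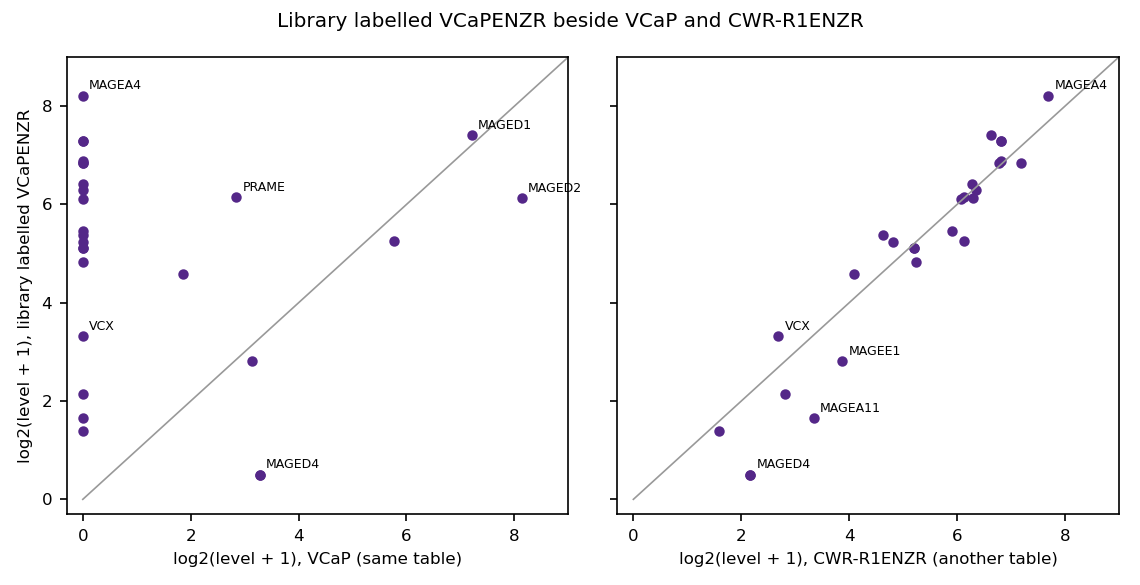
Level of each gene, as log2(level + 1), in the library labelled VCaPENZR (vertical axis) against VCaP (left) and CWR-R1ENZR (right), each point 1 gene, with the line of equal levels. On the left most points stand at 0 on the VCaP axis, and on the right 22 of the 24 compared genes lie within 2-fold of the line.

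The X chromosome carries 34 of the 39 genes; MAGEF1 is on chromosome 3, PRAME on chromosome 22, and 3 symbols were not matched. The other X-linked genes gave a measure of the chromosome. In C4-2B, 160 of 452 tested were called higher (35.4%) and 86 lower, with a median log2 difference of 0.12. In VCaP, 17 of 471 listed had no read (3.61%). Of the 47 genes next to a member, up to 2 per side within 500 kb, 38 were tested in C4-2B. Of these, 15 were higher (27.8% of all genes), 1 was lower (29.0%) and 22 had no call. The lower neighbour, GRPR, a receptor of bombesin-like peptides, reached the filter through C4-2B alone, so it had to differ. Among 37 neighbours listed in the VCaP table, 4 had no read there, and 3 of them, CSAG1, CSAG3 and GABRA3, lie among the MAGEA genes. CSAG1 and CSAG3 are themselves on the list of further cancer-testis genes given below, as is PASD1, a neighbour called higher in C4-2B. The other X-linked genes without a read in VCaP include CSAG1, CSAG3 and SAGE1, which is also on that list.

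Further cancer-testis genes were called in both directions. Of 123 on a list of further cancer-testis genes, 32 were tested in C4-2B, 5 were higher (27.8% of all genes) and 8 lower (29.0%), with a median log2 difference of 0.02. The 5 higher were PASD1 (difference 4.21), a circadian clock repressor, BRDT (2.45), the testis bromodomain protein, POTEF (2.10), SAGE1 (1.90) and TPTE (1.42). Of these, BRDT, POTEF and TPTE reached the filter through C4-2BENZR alone, so they had to differ. PASD1 had levels of 29.2 and 30.5 in C4-2BENZR against 0.309 and 1.14, and BRDT had 7.23 and 9.03 against 0.516 and 0.828. The 8 lower were VCY1B (-1.21), ZNF165 (-0.68), NXF2 and NXF2B (-0.57, with 1 shared value), PBK (-0.46), TTK (-0.29), NUF2 (-0.23) and KIF2C (-0.19). VCY1B reached the filter through C4-2B alone, so it had to differ. Of 33 listed for VCaP, 6 had no read (2.11% of all listed genes), among them SAGE1, which had 17.3 in the library labelled VCaPENZR. Of 9 germ cell genes tested, 3 were higher (27.8% of all genes) and 1 was lower (29.0%), NANOS3 (-1.68). NANOS3 reached the filter through C4-2B alone, and the higher genes REC8 and ID4 through C4-2BENZR alone, so these had to differ.

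Of 21 partners and relatives of the MAGE proteins tested, 1 was higher, the ligase PJA1 (0.47), and 12 were lower, with a median of -0.21, where 27.8% of all genes were higher and 29.0% lower. PRKAA1, an AMPK subunit that MAGEA3 and MAGEA6 mark for degradation, had 116 and 115 in C4-2BENZR against 214 and 228 in C4-2B (-0.93, adjusted p 7.25e-10 by limma). STUB1, a chaperone-bound ligase, had 218 and 230 against 345 and 339 (-0.61), and NDN, the MAGE relative necdin, 31.0 and 36.3 against 52.1 and 49.4 (-0.58). Of 9 partners of PRAME and VCX, 3 were higher and 2 lower, against the same shares of 27.8% and 29.0%. The higher were RARG (0.52), CUL2 (0.51) and RARA (0.31), and the lower were DCP2 (-0.36) and EZH2 (-0.35).

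Genes that place, remove or read DNA methylation were split. Of 19 tested, 8 were higher (27.8% of all genes) and 7 lower (29.0%), with a median of 0.04. TET1, which oxidises methylcytosine, had 10.02 and 9.27 against 4.18 and 3.11 (1.21), and DNMT3B, a methyltransferase, 34.4 and 34.0 against 22.3 and 18.6 (0.72). ZBTB38, which binds methylated DNA, had 28.5 and 24.1 against 44.0 and 48.4 (-0.79). GADD45A, linked to demethylation, had 11.7 and 14.4 against 9.18 and 5.43 (0.79). Of 34 genes that silence germline genes, 10 were higher and 6 lower against the same shares, with a median of 0.05, led by MGA (0.67), a repressor of meiotic genes, and the histone demethylases KDM5B (0.64) and KDM5A (0.53). Methylation itself was not measured.

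Markers of other cell types moved in part with the groups. Of 6 fibroblast markers 3 were listed in C4-2B, summing to 50.6 to 54.9 in C4-2BENZR and 13.4 to 17.7 in C4-2B, nearly all COL1A1, with LUM at 0 in both C4-2B libraries. Of 4 endothelial markers only VWF was listed there, at 3.54 to 7.53, and of 4 blood markers HBA1 and CD68, summing to 10.1 to 18.2. In the CWR-R1 pair 2 fibroblast markers were listed, COL1A1 at 22.2 and 63.6 and LUM at 11.6 and 2.81, and 2 endothelial markers, VWF at 5.73 and 26.5 and KDR at 0 and 1.07, with CD68 at 2.70 and 2.81. In VCaP and the library labelled VCaPENZR, COL1A1 had 8.25 and 17.0, LUM 21.2 and 0.238, and VWF 3.13 and 18.6. Of the blood markers, HBA1 had 2.45 and 1.37 in this pair, and CD68 had 0.512 and 9.82. The part of these differences in the results above was not tested.

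RefSeq promoters were matched for 28 of the 39 genes, in 43 windows. CTAG1A, CTAG1B, CTAG2, GAGE4, GAGE8, MAGEA1, MAGEA10, MAGEB17, MAGEH1, SSX3 and XAGE1E had none. The 250 bases before the start held a median of 8 CG dinucleotides, against 11 over all 35116 promoters and 11 over the 1236 on the X chromosome, at a median of 61.6% G and C against 58.0%. The E2F site GGCGGGAA, on either strand, was in 16.3% of these windows and 2.72% of all, in VCX, MAGED4, MAGED4B, SSX2 and SSX2B, of which the MAGED4 and the SSX2 genes are pairs of copies. In the printed VCX stretch it lies on the minus strand. The ETS core CCGGAA was in 9.30% against 14.5%, the androgen receptor half-site AGAACA in 11.6% against 12.4% and the E-box CACGTG in 2.33% against 6.34%. None of these 4 motifs contains another, and a match is a description of letters only.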

How the data were processed

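Polyadenylated RNA was purified with a column kit, treated with DNase and sequenced as 150 bp paired ends, per the labels' protocols. Per the submitters' processing notes, the genome build is hg19. Not given in the sources used here: aligner, counting program and strand setting. A signal value per library was deposited, in 1 table per line. Within a tolerance of 0.02 reads, 100% of these values were whole multiples of the worth of 1 read. The deposited fold, p-value and false discovery rate columns were not used.

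For C4-2B, limma 3.58.1 (R 4.3.3, trend) was fitted to log2(level + 1) of all 13280 genes with a level of at least 1 in at least 2 libraries, as a two-sided test of 2 libraries against 2, adjusted over all genes by Benjamini-Hochberg, threshold 0.05. Fold changes are ratios of means, and log2 differences, being of level + 1, understate the change of low genes. In the single-library lines, genes that reached a level of 5 in either library were compared at 2-fold, without a test. Their intervals, and those of C4-2B genes with few reads, are 95% Clopper-Pearson intervals from recovered reads. A group without reads was set to a floor of 3 reads. The replicates differed by more than counting error (chi-square per gene of 3.99 in C4-2BENZR and 5.67 in C4-2B). The script was tested on simulated data.

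The members and gene lists were chosen with earlier results of these data known, and the grouping of copies after their values were seen. Named were members with a level of at least 5 in a library, the 4 markers and PRAME, and up to 4 called genes with the largest difference per list. TPTE, RARG, CUL2, RARA, DCP2, EZH2, COL1A1 and the VCX neighbours were named after their values were seen. So were the further cancer-testis genes called lower. Windows shared between transcripts and levels per kilobase used the longest GENCODE transcript on GRCh38. Gene order and promoters came from RefSeq (GRCh38.p14), not the build of the tables, so no coordinate of a table is given. Alternatives were edgeR 4.0.16 and DESeq2 1.42.0 on recovered reads, other scalings, filters and pseudocounts, summed copies, a replicate block and each library left out.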

Additional observations from a re-analysis of the deposited data

Results flagged for a closer look

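The MAGEA genes that were called lower in C4-2BENZR stood higher in the library labelled VCaPENZR than in VCaP: the log2 ratio of level + 1 was 6.10 for MAGEA1, 5.46 for MAGEA12, 6.42 for MAGEA2 and 6.89 for MAGEA3, where C4-2BENZR minus C4-2B was -0.83, -0.18, -0.34 and -0.23. The widely transcribed MAGED2 (-2.004), MAGED4 (-2.78) and MAGED4B (-2.78) stood lower there, where the C4-2B differences were 0.37, 2.16 and 2.16. These genes were picked out because the libraries of the lines moved in opposite directions; the difference between lines was not tested, the VCaP pair has 1 library per group, and the library labelled VCaPENZR goes against its label.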

How the results depend on the processing

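Of 29 members with 346 alternative values in C4-2B, none changed direction and 20 kept their side of the threshold under every alternative run. The others were GAGE12D, GAGE12F, MAGEA2, MAGEA2B, MAGEA3, MAGEA6, MAGEA12, MAGEF1 and PAGE1. The members called lower numbered 2 with DESeq2 and 2 with total reads as the only scaling, against 4, and the members called higher 11 with copies summed, against 21. With total reads as the only scaling, MAGEF1 and PAGE1 were called higher (adjusted p 0.0199 and 0.0119 by limma), 61.9% of all called genes were higher against 48.9%, and the median of all genes moved to 0.10. GAGE12F was called higher by edgeR (0.0267). Leaving out 1 library reversed no difference, with the lone library of a group assumed to vary like the other group. Without either C4-2BENZR library 24 members were above the filter, and without either C4-2B library 29.

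The replicate numbers did not pair the libraries (correlation of same-numbered deviations 0.05 over 13280 genes). With a replicate block 22 members were called higher and 5 lower, adding GAGE12F (0.0147) and MAGEA6 (0.0308), with 4036 genes higher and 4212 lower in all, against 3691 and 3856.

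In CWR-R1ENZR 2 members were at least 2-fold higher with a filter at a level of 10, against 4, and 0 were past 3-fold lower, against 1. In the library labelled VCaPENZR 2 were lower with a filter at 10, against 4. Depth limits single copies with few reads, such as VCX2, VCX3B and SSX2 in C4-2B, and with 2 libraries per group the spread is estimated mainly across genes.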
